A study of Drosophila melanogaster with 3 samples.

Results

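The near-gene intergenic peaks of achi are binding regions whose summit, the base of highest signal, lies outside every annotated gene body but within reach of a gene. A summit had to be over 500 bp and up to 5000 bp from the closest protein-coding transcription start site (TSS), and over 500 bp from the TSS of every noncoding RNA. Of the 8998 peaks in the authors' optimal list, 819 met this rule, or 9.10% (95% Wilson interval 8.53 to 9.71%). The rule used positions alone, so signal, replicate recovery and sequence were free to differ between these peaks and others.

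The peaks came from ChIP-seq on prepupae of a transgenic *Drosophila melanogaster* line in which achi carries GFP at its C-terminal end. Chromatin of whole animals, males and females pooled and their age not known, was sonicated and precipitated with an antibody to GFP. One label names achi itself as the antibody's target. The labels number 3 biological replicates, which form 1 group with no other treatment. All replicates were called against the same control. Precipitates from animals without the tag were not analysed here, and a peak cannot be assigned to a tissue because whole animals were used.

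The protein achi (achintya) is a homeodomain factor of the TGIF class, which binds the core TGACAG. The MEIS-class homeodomain protein Homothorax binds the same core. Sequence between genes holds many of the enhancers that set when and where a fly gene is transcribed. The nearest gene is a label of position, and nothing here shows that it is a target.

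The 3 windows printed first are from the strongest member, the member ranked 58 and the strongest member near ds, and run 50 bases to each side of the summit on the plus strand of the dm6 build. Sequences were read from RefSeq's Release 6 assembly, which is the same build. Capitals mark the TGIF core TGACAG and the TATA word TATAAA on either strand. The Glyp window holds the core, the CG31668 window holds the TATA word on both sides of its summit, and the ds window holds neither.
Glyp (chr2L:2130206-2130306, plus strand): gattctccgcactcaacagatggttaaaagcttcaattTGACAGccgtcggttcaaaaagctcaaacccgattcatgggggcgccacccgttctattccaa
CG31668 (chr2L:2202355-2202455, plus strand): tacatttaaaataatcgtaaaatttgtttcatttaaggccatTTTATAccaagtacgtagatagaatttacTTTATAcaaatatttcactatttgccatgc
ds (chr2L:715505-715605, plus strand): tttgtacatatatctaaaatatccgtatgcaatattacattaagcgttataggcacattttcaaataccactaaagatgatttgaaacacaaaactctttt

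The next windows show CAGTGTA, a word found in 10.1% of the members' summit windows and 2.32% of their flanks. They come from 8 of the strongest members that hold it within 100 bp of the summit and are among the strongest regions of all replicates. Each window was turned so that the capitals, CAGTGTA, read 5′ to 3′.
Fbxl7 (chr3R:15919598-15919637, plus strand): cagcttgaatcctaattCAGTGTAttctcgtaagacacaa
CG3149 (chrX:5696573-5696612, plus strand): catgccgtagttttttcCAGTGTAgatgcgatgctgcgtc
fng (chr3L:20950282-20950321, plus strand): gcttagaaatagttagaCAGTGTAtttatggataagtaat
CG5953 (chr2L:16535857-16535896, minus strand): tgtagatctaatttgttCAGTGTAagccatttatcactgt
vers (chr3L:12115186-12115225, minus strand): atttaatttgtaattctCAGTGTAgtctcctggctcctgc
Cpr72Ea (chr3L:16361297-16361336, plus strand): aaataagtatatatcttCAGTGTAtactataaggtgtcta
ft (chr2L:4222993-4223032, minus strand): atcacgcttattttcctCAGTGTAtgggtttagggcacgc
CG13676 (chr3L:8153308-8153347, minus strand): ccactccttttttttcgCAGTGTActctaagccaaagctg

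The next 7 windows were chosen likewise for CAGTGCA. A run of T lies directly before the capitals in most of them.
E(spl)malpha-BFM (chr3R:26009087-26009126, plus strand): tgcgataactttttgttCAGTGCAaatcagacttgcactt
CG43131 (chr3R:5113173-5113212, minus strand): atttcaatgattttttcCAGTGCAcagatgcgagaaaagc
CG6168 (chr3L:11325788-11325827, minus strand): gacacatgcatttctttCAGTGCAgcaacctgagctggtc
CG15625 (chr2L:4888139-4888178, plus strand): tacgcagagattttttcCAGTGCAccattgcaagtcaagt
CG4218 (chr2L:14552256-14552295, minus strand): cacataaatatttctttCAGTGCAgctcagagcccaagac
CG17121 (chr3R:23048740-23048779, minus strand): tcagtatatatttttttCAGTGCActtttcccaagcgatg
aop (chr2L:2180158-2180197, minus strand): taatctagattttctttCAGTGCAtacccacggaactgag

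Glyp, which encodes glycogen phosphorylase, lay next to the strongest peak. Its summit was 557 bp upstream of the TSS, in the gap to CG4259, and its region spanned chr2L:2129991-2130494. It ranked 32 in the optimal list and 23, 45 and 33 in the lists of replicates 1, 2 and 3. The next peaks lay near loci known only by number. The peak nearest CG31668 ranked 58 in the optimal list and 72, 58 and 36 in the replicates. The peak nearest CG43245 ranked 94 and then 92, 104 and 76. These 3 were the only members among the strongest 100 optimal peaks.

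Of the next 9 named peaks, 4 are given in full here for what their nearest genes are known to do. A peak 572 bp upstream of ds, which encodes the protocadherin Dachsous of planar polarity and Hippo signalling, ranked 229, with replicate ranks of 222, 257 and 221. The peak 1808 bp upstream of E(spl)malpha-BFM, a Bearded-family gene of the Notch response, ranked 263, with 234, 287 and 263. Fbxl7, which encodes an F-box protein that acts with the cadherin Fat, had a peak 1312 bp upstream at rank 355, with 311, 399 and 367. The planar polarity and Wnt receptor gene fz had one 1759 bp upstream at rank 365, with 431, 292 and 411. In each of these the 3 replicates placed the region in nearly the same part of the list. The other named peaks of the strongest 12 lay near COX7AL2, CG43131, CG6149, tara and CG18404, at optimal ranks from 247 to 375.

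Over all members the signal was that of an ordinary peak or slightly below it. Ranks were used because the authors' signal value has no stated scaling between lists. Percent rank is 100 for the strongest region of a list. The median member had a percent rank of 45.6 in the optimal list. The members included 58 of the strongest 1000 peaks (5.80%) and 106 of the weakest 1000 (10.6%), against 9.10% of the whole list. Promoter peaks, those within 500 bp of a coding TSS, had a median of 58.0. Intronic peaks over 500 bp from a TSS had a median of 48.4, and intergenic peaks over 5000 bp away had 41.9.

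The same order held in each replicate's own list of 30000 regions. Members had median percent ranks of 83.7, 83.6 and 84.8 in replicates 1, 2 and 3 (mean 84.0 ± 0.661 SD, n = 3). They lay below promoter peaks in all 3, with differences of -5.415, -5.15 and -3.08 points (mean -4.55 ± 1.28 SD, n = 3). The differences were -0.47, -1.17 and -0.988 points from intronic peaks and 1.645, 1.07 and 1.38 from the far intergenic peaks. The exact two-sided sign-flip permutation test over the 3 replicates gave p = 0.25 for each comparison, the smallest it can give. Ranked by the −log10 q-value in place of signal, the 3 mean differences were all 0; in the optimal list 617 of the 819 members share the maximum of that value. No comparison over the replicates could pass the threshold of 0.05. Single members moved more: a member's highest and lowest percent rank differed by a median of 5.99 points, by over 10 points in 248 members and by over 20 in 63.

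**Figure D1:**
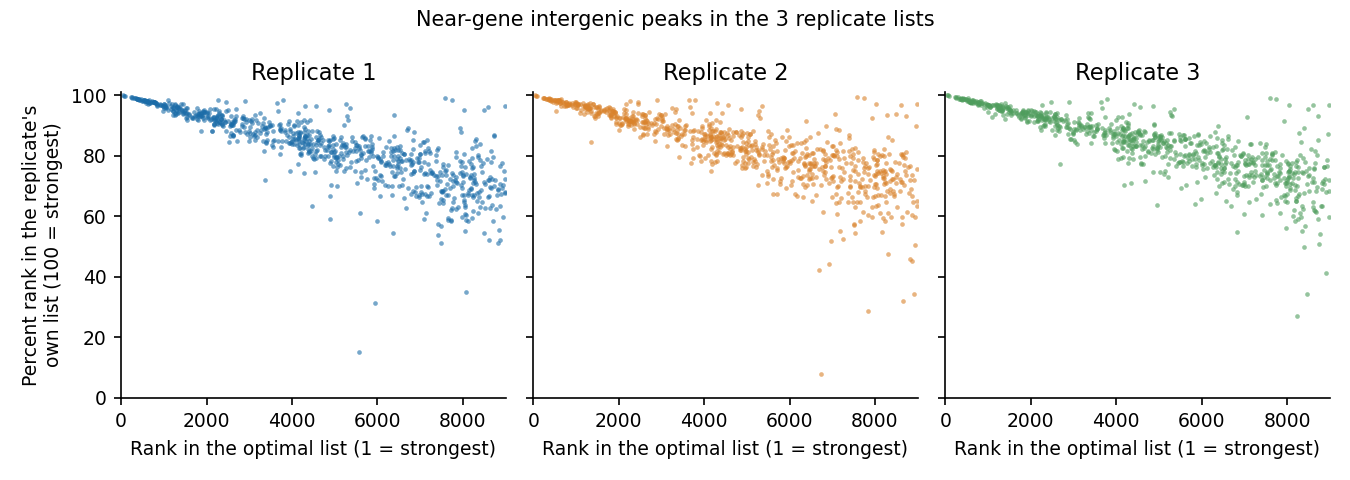
Each point is 1 of the near-gene intergenic peaks, with its rank in the optimal list on the x axis and, on the y axis, the percent rank of the strongest region that overlaps it in the list of replicate 1, 2 or 3. The points form a narrow band at the left and spread at the right, and Spearman's rho between replicates was 0.816 to 0.819.

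The plot of ranks shows how close the replicates were at the top of the list and how far apart at its end. Spearman's rho of percent rank between 2 replicates was 0.819, 0.816 and 0.818 over the 814 to 816 members with an overlapping region in both. For all optimal peaks it was 0.840 to 0.864. These values are descriptions, since the replicates share a control and the optimal list draws on all of them.

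Most members were found again among each replicate's strongest 8998 regions, called its top list here. The optimal list was made from these same replicates, and the top lists were cut at its length. High recovery, and its fall towards weak members, therefore follow in part from how the lists were made, and recovery is no independent check. The summit lay inside a top-list region for 83.6% of members in replicate 1, 87.2% in replicate 2 and 89.01% in replicate 3 (mean 86.6% ± 2.73 SD, n = 3). In all 3 top lists there were 569 members (69.5%, 95% Wilson interval 66.2 to 72.5%). Another 174 were in 2 and 73 in 1. The 3 members in none were a peak 3328 bp downstream of the TSS of the tubulin gene alphaTub84B, one 4024 bp upstream of psq and one 4028 bp upstream of the cuticle gene Cpr12A. Their optimal ranks were 8795, 8813 and 8976, at the very end of the list. Of the strongest 205 members, 97.6% were in all 3 top lists, and of the weakest 205, 11.2%.

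Whether members were recovered less often than promoter peaks depended on the replicate. The difference was -7.96 percentage points in replicate 1, -1.38 in replicate 2 and 2.74 in replicate 3. Replicate 1 recovered 91.6% of promoter peaks and replicate 3 86.3%, while members went the other way. Against intronic peaks the members were lower in all 3, with differences of -0.753, -0.308 and -1.78 points. The exact sign-flip permutation test gave p = 0.75 for promoters and 0.25 for introns.

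**Figure D2:**
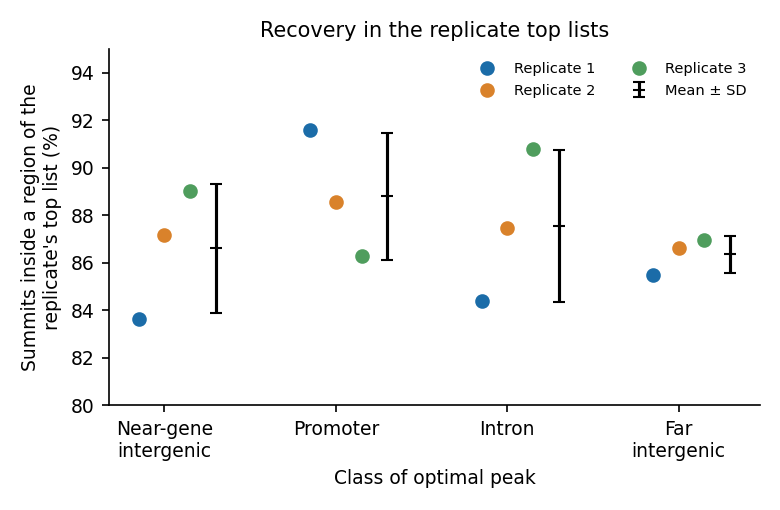
The y axis gives the percentage of optimal peaks of each class whose summit lay inside a region of a replicate's top list, with 1 point per replicate and the mean ± SD of the 3 in black; the axis starts at 80%. Near-gene intergenic peaks run from 83.6% in replicate 1 to 89.01% in replicate 3, and promoter peaks run the other way, from 91.6% to 86.3%.

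As the plot of recovery shows, the ranges of the 4 classes over the replicates overlapped. The number of members per list was steady all the same: the top lists held 766, 803 and 806 summits that met the rule (8.80% ± 0.248 SD of a list, n = 3).

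Peaks were about as dense in near-gene intergenic sequence as in the genome. The sequence in which a summit could have met the rule came to 11.9 Mb, or 8.72% of the 137 Mb of sequenced bases on 7 arms. Members fell there at 68.5 per Mb, against 65.7 per Mb for all optimal peaks over all arms, a ratio of 1.04. In the top lists the ratio was 0.976, 1.02 and 1.03 (mean 1.01 ± 0.0284 SD, n = 3; exact sign-flip permutation p = 0.5). The lowest 10000 regions of the authors' list from the pooled replicates, which describe weak signal of the same assay, gave 1.49. Weak regions were thus denser in this sequence than the peaks were.

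Members lay upstream of a gene more often than the available sequence did. Of the 819, 628 (76.7%, 95% Wilson interval 73.7 to 79.4%) were upstream of the gene whose TSS was nearest, while 69.4% of the eligible sequence was. The top lists gave 76.2%, 77.2% and 76.1%, each above the sequence (exact sign-flip permutation p = 0.25), and the lowest pooled regions gave 70.8%. Gaps whose flanking genes point away from each other held 38.2% of members and 31.4% of the sequence. Gaps whose genes point towards each other held 12.6% of members and 16.3% of the sequence. Density per Mb was 76.2 up to 1000 bp from the TSS, 78.5 from there to 2000 bp, 55.5 from there to 3000 bp and 65.8 beyond, so it did not fall steadily with distance.

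The median percent rank was 42.6 for the 66 optimal intergenic peaks in the last 100 bp outside the lower limit and 52.0 for the 46 in the first 100 bp inside it. Just inside the lower limit lay a peak near CG43401 (rank 6779) and peaks 505 bp from the leucine-rich repeat receptor gene 18w (2163) and from zormin (2881). Just outside lay peaks 497 bp from CG10479 (4716), C901 (5533) and CG7080 (7883). Just inside the upper limit lay peaks 4996 bp from the cell-death gene rpr (6794) and CG4766 (7466) and 4962 bp from CG9021 (7992). Just past it lay peaks near the Toll-like receptor gene Tollo (2321), CG8117 (4517) and CG44004 (3137). The 3 outside ranked higher than the 3 inside, while the medians over the 1000 bp to either side were 46.3 inside and 47.7 outside.

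Arm 3L stood out in density. It held 258 members, 31.5% of all, on 20.6% of the eligible sequence. That was 105 members per Mb, while 2L had 63.4, 3R had 66.4, X had 53.7 and 2R had 51.4. Chromosome 4 had 2 members on 0.0596 Mb. The top lists gave 94.0, 104 and 94.4 per Mb on 3L, and the highest value on any other arm in any of them was 67.7. The lowest pooled regions were nearly level, at 98.4 per Mb on X and 109 to 114 on the large autosomal arms. Over all peak classes 3L had 74.0 optimal peaks per Mb of arm and X had 71.6. The arms were compared after their values were seen, and no test was made.

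Many members shared a gap between genes. The 819 lay in 545 gaps, and the 183 gaps with 2 or more held 457 of them (55.8%). The median distance to the next optimal summit was 1622 bp for members, 1776 bp for intronic, 1963 bp for far intergenic and 2442 bp for promoter peaks. Another summit lay within 1000 bp of 36.1% of members, 30.2% of intronic, 30.6% of far intergenic and 29.4% of promoter peaks. Summits of optimal regions that overlap each other are among these. The fullest gap, 26875 bp on 3L between CG17154 and vers, held 8 members, 7 of them in all 3 top lists. The 9828 bp between CASK and the gustatory receptor gene Gr93a on 3R held 7, and the 8507 bp between Gr93a and Gr93b held 5. The 14917 bp between HGTX and shd held 5. The gene shd encodes the enzyme that makes 20-hydroxyecdysone, the hormone of metamorphosis, and 2 of its 5 members were in all 3 top lists.

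By nearest TSS the genes with the most members were CG13898 and CG7557 with 6 each, followed by vers, Dyro, Gr93a, CG12984 and shd with 5. All but Gr93a are on 3L. The genes ds, tara and kay, the fly Fos gene, had 4 members each, all upstream.

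Genes with a peak at their own promoter had more near-gene intergenic peaks beside them. Sequence nearest to a promoter-bound gene, one with an optimal summit within 500 bp of any of its TSSs, held 251 members on 1.63 Mb, or 154 per Mb. Sequence nearest to other genes held 568 on 10.3 Mb, or 55.0 per Mb. The ratio was 2.80 in the optimal list and 2.91, 2.91 and 2.90 in the top lists (mean 2.91 ± 0.00616 SD, n = 3; exact sign-flip permutation p = 0.25). With members over 1000 bp from the TSS alone the ratio was 2.58. The lowest pooled regions gave 1.47 by the same promoters, with 150 and 102 per Mb, so weak regions also leaned to this side, by less. Counted by gene, 30.9% of the genes next to a member were promoter-bound, against 16.9% of the other genes that have eligible sequence. The genes next to a member also had more such sequence, a median of 3534 bp against 789 bp, which the density accounts for and the share does not.

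**Figure D3:**
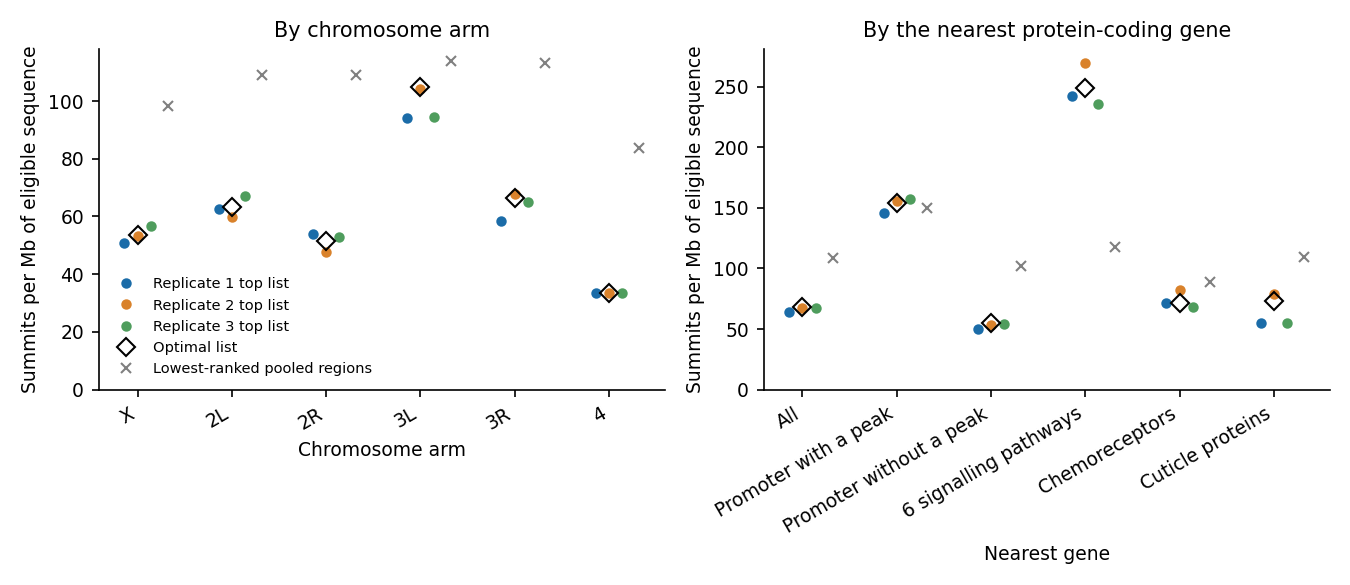
The y axes give summits per Mb of the sequence in which a summit could meet the rule, by chromosome arm on the left and by the nearest gene on the right. Coloured points are the 3 replicate top lists, diamonds the optimal list and crosses the lowest-ranked pooled regions; 3L, genes with a promoter peak and genes of 6 signalling pathways lie above the rest in all 3 replicates, at 105, 154 and 249 per Mb in the optimal list.

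In all, 583 of 13968 coding genes (4.17%) had a member as their nearest gene, and 9.34% of the 6244 genes with eligible sequence. The top lists gave 561, 570 and 588 genes. Of these genes 162 had 2 or more members, and 244 carried only a CG number. The lists that follow were read against that background. They were chosen with earlier results of these data known, and their counts are descriptions with no test.

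Signalling pathways of imaginal tissue had many members, and every one was upstream. So were all 8 members of the imaginal patterning list, all 10 of the ecdysone list and 11 of 12 of the cuticle list. The upstream share of the eligible sequence nearest to the genes of each list was not computed. Of 131 genes in the lists for Notch, EGFR and FGF, Wnt, TGF-beta and BMP, Hedgehog and Hippo, 23 had 36 members, and 36 of 36 lay upstream. Some of these members overlap each other and share a replicate region, yet each is counted in the numbers and densities. Both members of kek1, for example, met the regions ranked 4561, 1975 and 3748 in the replicates. On the 144 kb of eligible sequence nearest to these genes there were 249 members per Mb, against 68.5 overall. The top lists gave 242, 270 and 235 per Mb (249 ± 18.3 SD, n = 3). The lowest pooled regions gave 118 per Mb, close to their overall 109. Joining the 6 lists was a choice made after their values were seen, and the lists differed: the Wnt list alone had 89.6 per Mb, with 89.6, 149 and 89.6 in the top lists, and the EGFR and FGF list 133.

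Hippo and Fat signalling limits the growth of discs. Of 11 listed genes 4 had eligible sequence and 3 had members, which were 8 in all. Besides the peak at rank 229, ds had peaks at ranks 4400, 5490 and 6902. The FERM-domain gene ex had peaks 3675 bp and 981 bp upstream at ranks 622 and 1261. The first had percent ranks of 97.6, 97.3 and 98.3 in the replicate lists, and the second ranked 985, 1332 and 1456. The Dachsous partner gene ft had a peak 1278 bp upstream at rank 1041, with 1053, 1010 and 1193, and another at 4553. Both regions of ft overlap and share those replicate ranks.

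Notch signalling was represented at its modifiers and its targets. Of 28 listed genes 7 had members, as did 43.8% of the 16 with eligible sequence, with 7 in each top list. The written symbols Dl, Bd and nedd4 matched no gene name, so the ligand gene Delta was not assessed. The glycosyltransferase gene fng, which changes how Notch answers its ligands, had 3 upstream, at ranks 404, 1263 and 4002. The first of these ranked 388, 514 and 361 in the replicates. In the E(spl) complex, whose genes answer Notch, members lay near E(spl)malpha-BFM, E(spl)m2-BFM (rank 635), E(spl)m3-HLH (2154) and E(spl)mbeta-HLH (4406). The ubiquitin ligase gene mib1 had 3 and the ligand gene Ser had 1, at rank 4918.

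Of the other ligand and receptor genes, the BMP ligand gene dpp had a member 1725 bp upstream at rank 1425, with 1518, 2068 and 1075. The inhibitory Smad gene Dad had 2, at 1853 and 4831, and the glypican gene dally 1, at 2246. For Hedgehog, the receptor gene ptc had 3, at 4745, 4881 and 6623, and hh had 1, at 8023, found in 2 of 3 top lists. The hh member ranked 9933 in replicate 1, so it was lost whenever the top list of replicate 1 was required. In the EGFR and FGF list the ETS genes aop and pnt had members at 1008 and 3017, the EGFR inhibitor gene kek1 2, at 2981 and 8282, and the FGF gene ths 1. In the Wnt list, fz3 and the antagonist gene nkd had a member each beside that of fz.

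Ecdysone-response genes, which the hormone pulses around pupariation switch on, had 6 of 28 with a member (21.4%) and 5, 6 and 6 in the top lists. They were Eip75B, Eip78C, Eip93F and Hr38, whose products are transcription factors, with ImpE2 and rpr. Their 10 members were all upstream and of middle to low rank, from 2535 to 8862. The strongest lay 553 bp upstream of Eip75B and had replicate ranks of 4674, 1903 and 2206. The member of Eip78C ranked 5563 but 25456 in replicate 1, against 3820 and 3921 in the others, and that of Eip93F ranked 19666 in replicate 3. Single members of this list therefore rested on 2 replicates.

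The remaining lists varied. Imaginal patterning genes had 5 of 36 with members, with ct, a homeodomain gene, at rank 1204. Of the 36, 32 had eligible sequence. The density there was 68.0 members per Mb, close to the overall 68.5, and 76.5, 59.5 and 68.0 in the top lists. Actin and adhesion genes had 5 of 37, led by the integrin gene scb at 2262, with 170 members per Mb and 121, 121 and 170 in the top lists. That is above the overall density, as in the signalling and ecdysone lists. Of the cuticle protein genes 10 of 123 had members (8.13%), led by Cpr72Ea at 1020 and Cpr72Eb at 1322. Their density was 72.9 per Mb, and the top lists gave 54.6, 78.9 and 54.6, on both sides of the overall value. Kept to members in the top lists of both replicates 1 and 3, the list had 5 genes with members, and with replicates 1 and 2 it had 6. That was a larger fall than over all genes, of which 469 and 458 were left. Chemoreceptor genes had 12 of 179 (6.70%) at 71.9 per Mb, and 11 of their 21 members were upstream. Cytoplasmic ribosomal protein genes had 2 of 93 (2.15%). The TALE homeobox genes, the class to which achi belongs, had 0 of 7. Only 4 of these had eligible sequence, 12.9 kb in all, too little to read an absence from. With only protein-coding genes as gene bodies, 1 of them had a member. The Hox complexes had 1 of 11, bcd, at rank 4868. The lists for cell death, clock, neuron, muscle and immune genes had 1 gene each, rpr, dco, fne, sls and PGRP-SA.

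The summits were poor in G and C. Windows reaching 100 bp to each side of the summit averaged 33.8% G and C (SD 6.74 over the 819 members), and windows of the same width 1000 bp further from the TSS averaged 41.0%. The summit was lower than its own flank in 604 members (73.7%). The top lists gave 34.9%, 33.9% and 33.6% at the summit. Intronic peaks (34.2%) and far intergenic peaks (33.7%) were alike, promoter peaks had 36.5%, and near-gene intergenic regions among the lowest pooled ones had 40.6%. In bins of 50 bp the share was 31.7% at the summit, rose to 45.7% and 46.2% at 325 bp to either side and was back to 41.1% on average beyond 500 bp. The dip therefore sat between shoulders richer in G and C than the surroundings.

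Along with this dip, words made of A and T were more frequent at the summit and words made of G and C less so. Whether the dip causes this was not tested. Of 2077 hexamers found in at least 1% of flanks, 216 (10.4%) were more frequent at the summit and 387 (18.6%) less frequent. The test was the exact McNemar test with Benjamini-Hochberg adjustment over all of them. Members near each other share sequence, so the test treats as independent some windows that are not. The median ratio of summit to flank share fell from 1.54 for words with no G or C to 0.432 for words of only G and C. Words are therefore read against others with the same number of G and C.

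Overlapping words such as AGTGTA and GTACAC led those classes. AGTGTA was in 160 summit windows (19.5%, 95% Wilson interval 16.9 to 22.4%) and in 8.06% of flanks, a ratio of 2.42, the highest of 492 words with 2 G or C (exact McNemar test, adjusted p = 5.02e-09 over all hexamers). The top lists gave ratios of 2.43, 2.31 and 2.28. GTACAC led the 640 words with 3 G or C at 2.50 (exact McNemar test, adjusted p = 6.86e-06), and ACACTG reached 2.13 there. The palindrome GTGCAC led the 489 words with 4 G or C, in 10.5% of summits against 5.13% of flanks (exact McNemar test, adjusted p = 0.000851), with ratios of 2.27, 2.15 and 2.44 in the top lists. All of these except GTACAC had been picked from earlier results on distal peaks of these data, so for them this is no independent finding. For GTACAC it is not wholly independent either. The word AGTGTAC, which holds both AGTGTA and GTACAC on opposite strands, was in 51 summit windows, and GTACAC was in 100.

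Longer words showed a larger contrast. They were put together from the leading hexamers after these were seen, and they have no test. CAGTGTA was in 10.1% of summit windows and 2.32% of flanks, a ratio of 4.37, and the top lists gave 9.27%, 9.96% and 9.80%. CAGTGCA was in 13.9% against 3.91%, a ratio of 3.56, with 12.9%, 12.8% and 13.6%. In the near-gene intergenic regions among the lowest pooled ones the shares were 2.93% and 6.39%, and in promoter peaks 3.96% and 4.78%. Intronic peaks had 8.45% and 11.99%, and far intergenic peaks 10.7% and 16.3%, so the words were not particular to the near-gene peaks. CAGTGTG, with another ending, was in 3.79% against 3.17%.

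T was frequent before these words over all members, not in the printed windows alone. Of the 8 bases before CAGTGCA, T made up 56.6% over 126 occurrences at summits and 34.0% over the 32 in flanks. At least 5 of the 8 were T in 58.7% and 25% of these. Before CAGTGTA the T share was 60.5% over 88 occurrences and 50% over the 19 in flanks, too few to set the 2 apart.

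Some words lay beside the summit more than on it. GTGCAC occurred 0.290 times per kb within 50 bp of the summit, 0.702 from there to 150 bp and 0.211 from there to 500 bp. The ratio of the middle zone to the inner one was 2.42, and 1.80, 1.86 and 2.04 in the top lists, while the lowest pooled regions gave 0.915. CAGTGCA had 0.520, 0.910 and 0.208 per kb in the 3 zones, a ratio of 1.75 against 0.783 in the lowest pooled regions. AGTGTA had 0.967, 1.17 and 0.398, and its ratio of 1.21 was no larger than that of the lowest pooled regions, 1.24. For CAGTGTA the ratios were likewise close, 1.36 and 1.28. TATAAA had the opposite order, 3.19, 2.03 and 1.26, with its highest value at the summit. Intronic and far intergenic peaks had the same order for GTGCAC, with 0.304 against 0.618 and 0.393 against 0.754. The zones were set after the profile was seen and have no test.

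**Figure D4:**
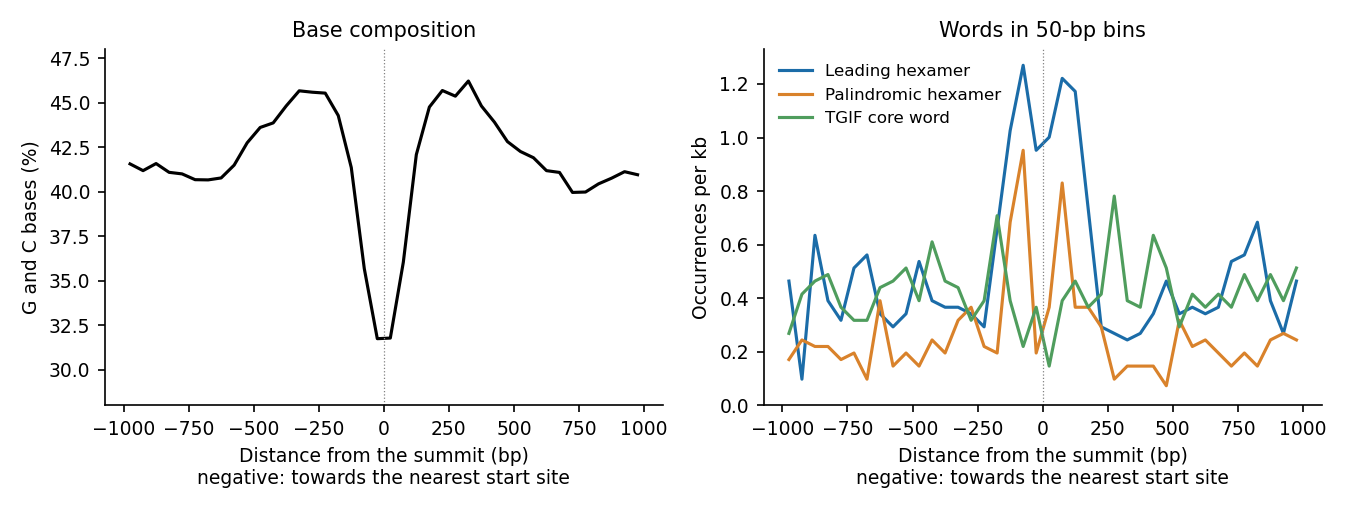
Left, the mean percentage of G and C in 50-bp bins around the 819 summits, negative distances being towards the nearest TSS. Right, occurrences per kb of AGTGTA (leading hexamer), GTGCAC (palindromic hexamer) and TGACAG (TGIF core word) in the same bins; the first reaches 1.27 and the second 0.952 at 75 bp from the summit, GTGCAC falls to 0.195 in the bin on the TSS side of the summit, and the core word is at 0.147 to 0.366 in the 2 central bins.

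In the plot of words by distance, AGTGTA was at 0.293 per kb by 225 bp on either side of the summit, under its mean of 0.414 beyond 500 bp, and the TGIF core showed a dip in place of a peak.

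The TGIF core TGACAG was not enriched at these summits. It was in 45 windows (5.49%, 95% Wilson interval 4.13 to 7.27%), against 8.67% of flanks, a ratio of 0.634. Over the 19 words that were listed for testing it was called lower (exact McNemar test, adjusted p = 0.0447 over the 19), but not when adjusted over all hexamers (0.0599) or over the 16 words that remain without the 3 picked from earlier results (0.0602). Its ratio lay within the range of words with 3 G or C, whose median was 0.828 and 5th percentile 0.547. The call also ended under 10 of the 15 alternatives run for this word, with adjusted p from 0.0559 to 0.473 in those. Among members kept in the top lists of both replicates other than replicate 3, the adjusted p was 0.168 (exact McNemar test). The ratio stayed below 1 in each alternative. In the top lists 5.87%, 4.23% and 4.84% of summits held the core. Promoter peaks held it in 11.7%, and there it lay within 50 bp of the summit 0.913 times per kb, against 0.254 in members. In each replicate members were below promoter peaks, with differences of -5.54, -7.06 and -7.098 percentage points (exact sign-flip permutation p = 0.25). The strongest member, near Glyp, was among the 45. Members with the core were not placed higher in the optimal list, with a median percent rank of 41.2 against 45.8 for those without. In the replicate lists the medians were close, and the difference, with less without, was 1.15, -0.695 and 0.733 points.

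Of the other listed words, TATAAA was in 39.7% of summits and 26.1% of flanks (adjusted p = 7.58e-08 over the 19 words, exact McNemar test). Its ratio of 1.52 was below the median of 1.54 for words with no G or C. AGATAA, a site of GATA factors, was in 15.4% against 9.77% (0.00305, exact McNemar test). Its ratio of 1.575 lay within the range of words with 1 G or C, whose median was 1.41 and 95th percentile 1.85. The AGATAA call ended with the flank towards the TSS (ratio 1.19, adjusted p = 0.257, exact McNemar test). It also ended with a limit of 3000 bp (0.0959) and with windows of 200 bp to each side (0.0696). CACACA (12.6% against 17.6%, 0.0141) and GGAATG, the core of the TEAD factor Scalloped (6.72% against 10.6%, 0.0150), were lower, with ratios of 0.715 and 0.632 within the range of their class of 3 G or C. The CACACA call ended among members kept in the top lists of both replicates 1 and 3 (adjusted p = 0.0777, exact McNemar test) or both replicates 1 and 2 (0.114). It also ended at 3000 bp (0.246) and with windows of 50 bp to each side (0.122), and its ratio turned to 1.08 with windows of 200 bp. The GGAATG call ended in 4 alternatives, with adjusted p from 0.0565 to 0.135 (exact McNemar test). The homeodomain word TAATTA was in 20.3% against 15.995% and missed the threshold at 0.0584. It passed among members kept in the top lists of both replicates of any pair, with adjusted p from 0.00588 to 0.0489 (exact McNemar test). Its ratio of 1.27 was nevertheless among the lowest of the 36 words with no G or C, ranking 34. The GAGA word GAGAG, in 20.5% against 18.9%, and the E-box CACGTG, in 1.71% against 2.44%, were not called. The DREF word TATCGATA was in 4 members (0.488%) and in 6.25% of promoter peaks. The other 7 listed words were not called either, with ratios from 0.559 to 1.37.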

How the data were processed

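ChIP-seq peak lists from 3 biological replicates of 1 group were used, and no reads. The deposited lists give per region a signal value and a −log10 q-value, both made by the authors per the file descriptions from alignments with a shared control. Which aligner and peak caller made them is not given in the sources used here. The −log10 q-value was at its maximum in 617 of 819 members, so regions were ranked by the deposited signal, which was not compared between lists. Read depth is unknown, and intervals (95% Wilson) cover counting error only. The labels do not say whether replicates share a day or batch.

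Genes and TSSs came from Ensembl release 115, in which 5889 transposable elements count as gene bodies, and sequence from the Release 6 assembly (dm6). A member was recovered when its summit lay in a region of a replicate's 8998 strongest. Its percent rank was that of the strongest region overlapping it by at least 1 bp, and 6 members had none in at least 1 replicate list. Optimal regions that overlap each other were counted as separate members, and such members can share the same replicate region and percent rank. Eligible sequence was every base where a summit could meet the rule. Words were sought on either strand in the 100 bp to each side of a summit, and in a like window centred 1000 bp further from the TSS. That flank lay in a gene body for 13.6% of members. Python 3.11.15, numpy 2.4.6, scipy 1.17.1 and pandas 2.3.3 were used, and functions were tested on simulated data. Replicates were compared with exact sign-flip permutation tests. Named peaks were the 12 strongest in all 3 top lists, the strongest beside a gene of each list, those at the limits and the fullest gaps; further members of the lists were named after their values were seen. The lists held 336 written symbols, 9 of which matched no gene. No sequence of arm 2R is printed, and 1 window is not reported here. Members and lists were chosen with earlier results of these data known.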

Additional observations from a re-analysis of the deposited data

How the results depend on the processing

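Counting only protein-coding genes as gene bodies turned the density ratio from 1.04 to 0.983. A limit of 3000 bp left 545 members and 4 called words of the 19 in place of 8, with 83.3% upstream, and a lower limit of 1000 bp gave 72.7% upstream. Both limits also change the eligible sequence. The stronger 50% of peaks held 372 members, 298 genes and 132 hexamers called higher, with a density ratio of 0.948, 77.4% upstream, recovery of 98.9% and a median percent rank of 92.1. Recovery less that of other classes then turned to 0.889 points (promoter) and -0.708 (far intergenic), and median percent rank less that of introns to 0.0689. Top lists cut to 50% of their length recovered 44.8%. The −log10 q-value in place of signal gave a median percent rank of 88.9, and the differences of members from promoter, intronic and far intergenic peaks all became 0; in the optimal list 617 of 819 members share the maximum of that value. Windows of 50 bp to each side called 5 fixed words, and there GTGCAC had a ratio of 1; windows of 200 bp called 104 hexamers higher and turned the CACACA ratio to 1.08. With the flank on the TSS side CAGGTAG turned from 1.20 to 0.286. The causes were not tested.

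Leaving out each replicate in turn did not remake the optimal list, which draws on all replicates. Members were instead kept if their summit lay in the top lists of both remaining replicates, a filter not used for the main values. This stricter rule gave 616 to 642 members and a density ratio of 1.01 to 1.03. It called 191 to 208 hexamers higher and 8 to 10 fixed words, with 76.1 to 76.6% upstream and 458 to 482 genes. Recovery of 85.4 to 88.1% and median percent ranks of 83.6 to 84.2 covered all members, averaged over the remaining replicates. Recovery less that of promoter peaks then ran from -4.67 without replicate 3 to 0.681 without replicate 1, and less that of far intergenic peaks from -0.645 to 1.30 likewise. Adjusted over the 16 words not picked from earlier results, 4 fixed words were called. Of 88 recomputed main values 69 were classed as unchanged. Of 548 others 456 were, while 22 lost and 16 gained a call, 47 moved and 7 turned. Shares, density ratios and ranks were unchanged if they moved by less than the SD of the replicates, and words if their call stayed as it was. Counts were instead unchanged within a fixed ratio, by which 616 members in place of 819 passed, so this class is wide for them. The 16 words, arms without Y, and flanks outside gene bodies, were added after the data were seen. No paired analysis was possible because there is 1 group. Depth limits are unknown, since the lists hold no read counts.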
